A study of Mus musculus with 16 samples.

Results

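The miR-29 family was examined in the mouse macrophage-like line RAW264.7 on 16 single-colour Agilent mouse microRNA (miRNA) arrays. Its members were taken by name from the arrays as mmu-miR-29a-3p, mmu-miR-29b-3p and mmu-miR-29c-3p, written below without the species prefix. They are 3 of the 1247 mouse miRNAs on the array and 3 of the 231 that were tested. Th2_IL33 cells were cultured for 48 h with 10 ng/ml of interleukin-4 and interleukin-13, called Th2 cytokines, washed, and then stimulated with recombinant mouse interleukin-33 (IL-33, 20 ng/ml) for 4 h. Th2 cells had the cytokine culture without IL-33, Media_IL33 cells had culture in medium and then IL-33, and Media cells had neither. Each group held 4 arrays, 1 from each of 4 independent experiments, which are numbered 1 to 4 here. All groups are of 1 cell line, so the experiments repeat the culture and not the animal, and 100 ng of total RNA was labelled per array. The design asks how Th2 cytokine culture changes miRNA levels and how it changes the response to IL-33.

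A miRNA guides the Argonaute protein to messenger RNAs that pair with its seed, the bases next to its 5′ end, and lowers the output of those messages. The miR-29 family is known for repressing collagens and other extracellular matrix genes, the DNA methyltransferases Dnmt3a and Dnmt3b, and the survival gene Mcl1. Interleukin-4 and interleukin-13 drive alternative activation of macrophages, and IL-33 is an epithelial alarm cytokine that signals through the receptor ST2. Messenger RNAs were not measured on these arrays.

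The mature sequences of RefSeq (GRCm38.p6) are shown because the members share 1 seed and differ only behind it. Capitals mark the seed, bases 2 to 8 counted from the 5′ end.
miR-29a-3p: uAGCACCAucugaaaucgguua
miR-29b-3p: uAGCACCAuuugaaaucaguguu
miR-29c-3p: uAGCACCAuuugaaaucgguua
The seed AGCACCA is carried by 3 of the 1679 mature mouse arms in the RefSeq table, and those are the members. miR-29c-3p differs from miR-29a-3p at 1 of 22 bases, C10U with the miR-29a-3p base first. miR-29b-3p is 23 bases long and differs from miR-29c-3p by G18A, U21G and A22U with the miR-29c-3p base first, beside its last base.

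The members are made from 4 hairpin genes in 2 pairs. Mir29a lies at chr6:31062660-31062747 and Mir29b-1 at chr6:31063023-31063093, both on the minus strand, with 275 bases between them. Mir29b-2 lies at chr1:195037040-195037120 and Mir29c at chr1:195037547-195037634, both on the plus strand, with 426 bases between them (GRCm38.p6). The RefSeq gene A330023F24Rik overlaps both chromosome 1 hairpins, and no other annotated gene overlaps the chromosome 6 hairpins. The hairpins are printed from RefSeq with the 3p arm in capitals, to show which arm was measured and that both Mir29b hairpins hold the same one.
Mir29a: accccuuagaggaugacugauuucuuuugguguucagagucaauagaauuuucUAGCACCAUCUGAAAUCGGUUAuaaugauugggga
Mir29b-1: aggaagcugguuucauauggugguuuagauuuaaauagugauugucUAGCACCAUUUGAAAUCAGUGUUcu
Mir29b-2: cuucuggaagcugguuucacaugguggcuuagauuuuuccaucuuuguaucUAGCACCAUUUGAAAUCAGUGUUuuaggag
Mir29c: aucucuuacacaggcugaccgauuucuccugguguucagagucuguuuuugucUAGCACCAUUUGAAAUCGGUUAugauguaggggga
A miR-29b-3p signal therefore sums the products of a chromosome 6 and a chromosome 1 gene, which the array cannot separate.

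The probes on the array are shown because they decide how well the members are told apart. Each member had 2 probes with 20 spots each, and the capital marks the probe base that faces base 10, where miR-29a-3p differs from the others.
miR-29a-3p probe 1: taaccgatttcaGatggtg
miR-29a-3p probe 2: taaccgatttcaGatggtgc
miR-29b-3p probe 1: aacactgatttcaAatggtg
miR-29b-3p probe 2: aacactgatttcaAatggtgc
miR-29c-3p probe 1: taaccgatttcaAatggtgct
miR-29c-3p probe 2: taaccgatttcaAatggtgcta
The miR-29a-3p probes have 1 mismatch to miR-29c-3p and 4 to miR-29b-3p. The miR-29c-3p probes have 1 mismatch to miR-29a-3p and 3 to miR-29b-3p. The miR-29b-3p probes have 4 to miR-29a-3p and 3 to miR-29c-3p, and they also cover base 23, which those members lack. Whether RNA of one member also bound the probes of another was not tested. Probe 2 gave 92.2% of the miR-29b-3p signal, 68.8% of that of miR-29a-3p and 54.9% of that of miR-29c-3p.

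Values are relative signals, the summed probe intensity of a miRNA divided by the 75th percentile of its own array over the 178 miRNAs detected on all arrays. Probes differ in brightness, so the signal of one miRNA is not set against that of another. From 206 to 256 miRNAs were detected per array, and no spot was saturated. The arrays lay on 2 slides. All 4 Th2_IL33 arrays, Media_IL33 arrays 1 and 2, Th2 array 4 and Media array 1 were on slide 2, and the other arrays on slide 1. Th2_IL33 array 2 and Media arrays 1 and 3 were taken to stand apart from their groups, with median correlations of 0.945, 0.920 and 0.874 with them. The value of Media array 3 was the lowest of all arrays. Media array 2 was not set apart, although its median correlation was also 0.920. It had the fewest detected miRNAs (206) and the most outlier spots (3929). Results without the 3 arrays that stood apart therefore keep Media array 2. The labelled cell type was checked on marker miRNAs. All 4 miRNAs listed as myeloid markers (miR-223-3p, miR-142a-3p, miR-142a-5p and miR-21a-5p) were detected on all 16 arrays. Of 14 markers of other cells, 13 were detected on none. The exception was miR-206-3p, listed for muscle, which was detected on 11 of the 16 arrays with a mean relative signal of 0.0604.

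miR-29a-3p was detected and well above background on 16 of 16 arrays, with intensities of 735 to 1558. In experiments 1 to 4, its relative signal was 2.54, 2.73, 2.33 and 2.86 in Th2_IL33 cells and 1.66, 1.84, 2.12 and 2.31 in Media_IL33 cells. It was 2.38, 2.50, 2.31 and 2.58 in Th2 cells and 2.29, 1.72, 1.24 and 2.37 in Media cells. Every Th2_IL33 value lay above every Media_IL33 value, whereas the Th2 and Media values overlapped, since Media array 4 lay within the Th2 range and Media array 1 just under it. The group means were 2.61 ± 0.234 in Th2_IL33, 2.44 ± 0.118 in Th2, 1.98 ± 0.288 in Media_IL33 and 1.91 ± 0.530 in Media (SD, n = 4 each). In this order the Th2_IL33 and Th2 values overlapped, as did the Media_IL33 and Media values, and the lowest Th2 value lay just above the highest Media_IL33 value. The Media spread was the widest, with the lowest of the 16 values (1.24) at one end and 2.37 at the other.

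miR-29c-3p, which differs from miR-29a-3p by the single base, was likewise above background on 16 of 16 arrays, with intensities of 168 to 383. In experiments 1 to 4, its relative signal was 0.558, 0.660, 0.602 and 0.535 in Th2_IL33 cells and 0.370, 0.443, 0.472 and 0.450 in Media_IL33 cells. It was 0.594, 0.571, 0.546 and 0.525 in Th2 cells and 0.561, 0.394, 0.306 and 0.472 in Media cells. As with miR-29a-3p, Th2_IL33 and Media_IL33 did not overlap and Th2 and Media overlapped through Media array 1. The means were 0.589 ± 0.0551 in Th2_IL33, 0.559 ± 0.0299 in Th2, 0.434 ± 0.0445 in Media_IL33 and 0.433 ± 0.109 in Media (SD, n = 4 each). The first 2 groups overlapped with each other and the last 2 did so too, while no Th2 value fell within the Media_IL33 range.

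miR-29b-3p was above background on 16 of 16 arrays, with intensities of 233 to 619. In experiments 1 to 4, its relative signal was 0.645, 0.815, 0.945 and 0.576 in Th2_IL33 cells and 0.499, 0.652, 0.663 and 0.664 in Media_IL33 cells. It was 0.678, 0.773, 0.626 and 0.715 in Th2 cells and 1.00, 0.545, 0.631 and 0.605 in Media cells. The lowest of all 16 values was that of Media_IL33 array 1 and the highest that of Media array 1, which come from the same experiment. The means were 0.745 ± 0.167 in Th2_IL33, 0.698 ± 0.0621 in Th2, 0.620 ± 0.0808 in Media_IL33 and 0.695 ± 0.207 in Media (SD, n = 4 each). All 4 groups overlapped, so the order of the means was not separated by the spread between arrays.

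**Figure D1:**
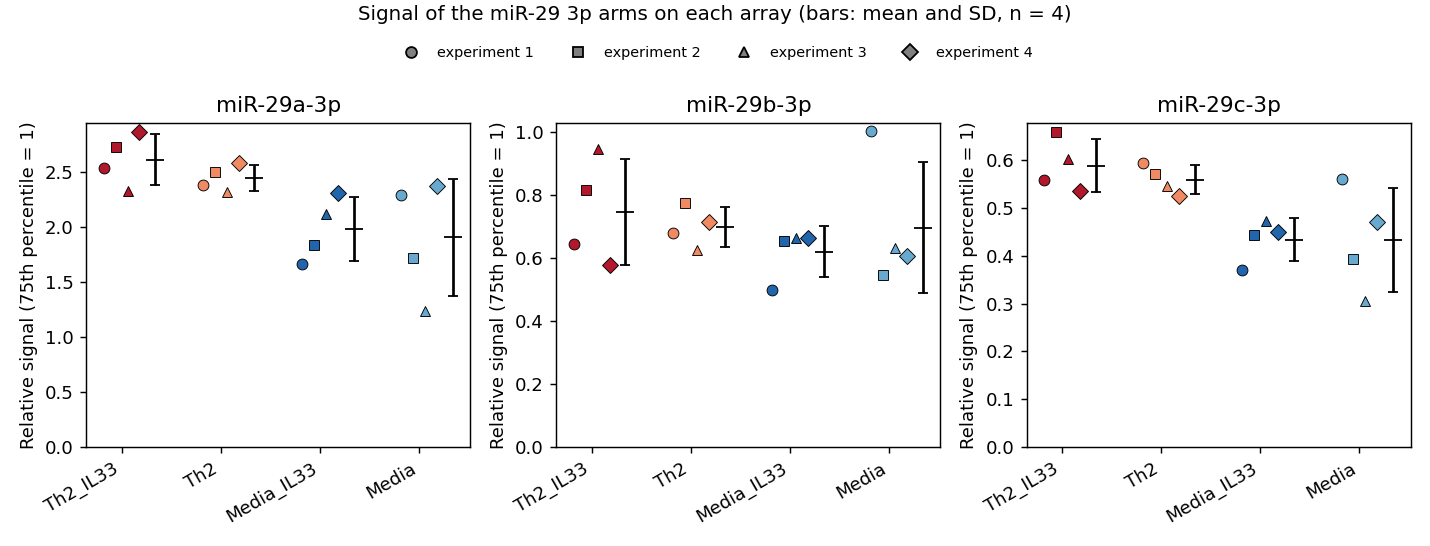
Relative signal (75th percentile of the array = 1) of each member on each array, with Th2_IL33, Th2, Media_IL33 and Media from left to right, symbols for the 4 experiments, and bars for the mean and SD (n = 4). miR-29a-3p and miR-29c-3p sit higher in both Th2-cultured groups (means of 2.61 and 2.44, and of 0.589 and 0.559) than in both medium groups (1.98 and 1.91, and 0.434 and 0.433), while the miR-29b-3p groups overlap throughout.

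Th2 cytokine culture was compared with medium in the absence of IL-33 first. miR-29a-3p was 1.32-fold and miR-29c-3p 1.32-fold higher on average in Th2 than in Media cells, and each was higher in 4 of 4 experiments, but neither difference passed the test. miR-29b-3p was higher in 2 of 4 experiments. The log2 difference, Th2 minus Media, was 0.40 ± 0.18 for miR-29a-3p (SE, 95% interval 0.023 to 0.78, limma adjusted p = 0.173). It was 0.40 ± 0.16 for miR-29c-3p (0.066 to 0.74, adjusted p = 0.132) and 0.043 ± 0.19 for miR-29b-3p (−0.37 to 0.46, adjusted p = 0.961). None of the 3 members was thus called, against 9.52% of the 231 tested miRNAs at an adjusted p under 0.05, and none had groups that did not overlap, against 10.8% of them. The miR-29a-3p difference was 0.057, 0.54, 0.90 and 0.12 in experiments 1 to 4, and that of miR-29c-3p 0.082, 0.54, 0.84 and 0.16. Both were thus wide in experiments 2 and 3, where the Media signal was low, and narrow in experiments 1 and 4. On slide 1 the differences were 0.48 for miR-29a-3p, 0.57 for miR-29c-3p and 0.22 for miR-29b-3p. On slide 2, with 1 array of each group from different experiments, they were 0.17, −0.096 and −0.49. Without Media array 1, miR-29c-3p passed the test (0.54, adjusted p = 0.0264). Without Media array 3, which had the lowest signal of both, the difference was 0.21 for miR-29a-3p (adjusted p = 0.374) and 0.25 for miR-29c-3p (adjusted p = 0.248). Without the 3 arrays that stood apart it was 0.27 for miR-29a-3p, 0.37 for miR-29c-3p and 0.28 for miR-29b-3p (adjusted p = 0.331, 0.0884 and 0.428). That of miR-29a-3p was 0.15 with array weights (adjusted p = 0.460) and 0.24 in the authors' deposited table (adjusted p = 0.414), and that of miR-29c-3p was 0.20 with normexp background correction (adjusted p = 0.305).

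The same culture was then compared in IL-33-stimulated cells, on other arrays. miR-29a-3p was 1.33-fold and miR-29c-3p 1.36-fold higher on average in Th2_IL33 than in Media_IL33 cells, each in 4 of 4 experiments and with no overlap between the groups. Groups lay apart in this way, in either direction, for 16% of the tested miRNAs. The log2 difference, Th2_IL33 minus Media_IL33, was 0.41 ± 0.18 for miR-29a-3p (95% interval 0.026 to 0.79, limma adjusted p = 0.209) and 0.44 ± 0.16 for miR-29c-3p (0.11 to 0.78, adjusted p = 0.108). For miR-29b-3p it was 0.25 ± 0.19 (−0.16 to 0.66, adjusted p = 0.471), higher in 3 of 4 experiments with overlapping groups. No member was called, against 9.52% of the tested miRNAs. In experiments 1 to 4 the difference was 0.61, 0.57, 0.14 and 0.31 for miR-29a-3p, 0.59, 0.58, 0.35 and 0.25 for miR-29c-3p, and 0.37, 0.32, 0.51 and −0.21 for miR-29b-3p. Within slide 2, which held all 4 Th2_IL33 arrays and 2 Media_IL33 arrays, the differences were 0.58 for miR-29a-3p (adjusted p = 0.0458), 0.54 for miR-29c-3p (adjusted p = 0.0648) and 0.36 for miR-29b-3p (adjusted p = 0.429). Without Media array 3, which enters through the shared estimate of the spread, miR-29a-3p (0.41, adjusted p = 0.0428) and miR-29c-3p (0.44, adjusted p = 0.0211) passed the test. The miR-29a-3p difference was 0.11 with quantile normalization (adjusted p = 0.742) and 0.16 in the authors' deposited table (adjusted p = 0.668).

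Averaged over both pairs of groups, miR-29a-3p and miR-29c-3p rose with Th2 cytokine culture. This average was added after the values above had been seen. miR-29a-3p was 1.32-fold higher (log2 difference 0.40 ± 0.13, 95% interval 0.14 to 0.67, limma adjusted p = 0.0350) and miR-29c-3p 1.34-fold higher (0.42 ± 0.11, 0.18 to 0.66, adjusted p = 0.0141). miR-29b-3p did not pass the test (0.15 ± 0.14, −0.15 to 0.44, adjusted p = 0.436). Thus 2 of 3 members were called, beside 19.9% of the 231 tested miRNAs, or 16% counted in the higher direction. The 8 Th2-cultured arrays had miR-29a-3p signals of 2.31 to 2.86 with a median of 2.52, and the 8 medium arrays of 1.24 to 2.37 with a median of 1.98. For miR-29c-3p the range was 0.525 to 0.660 with a median of 0.565 in Th2-cultured cells and 0.306 to 0.561 with a median of 0.446 in medium cells. Both ranges overlapped slightly, through Media array 4 for miR-29a-3p and Media array 1 for miR-29c-3p.

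The median log2 difference of all tested miRNAs in this average was 0.096, and −0.033 in the authors' deposited table. Relative to that median, miR-29a-3p was higher by 0.31 and miR-29c-3p by 0.33, and over 5 other scalings and summaries by 0.23 to 0.31 and by 0.19 to 0.46. Both calls were lost with the percentile taken over all miRNAs (adjusted p = 0.266 for miR-29a-3p and 0.242 for miR-29c-3p), with quantile normalization (0.243 and 0.132), in the authors' deposited table (0.246 and 0.149), and within slide 2 (0.149 and 0.493), where Th2 and Media had 1 array each, assumed to vary like the other groups. That of miR-29a-3p was also lost with normexp background correction (0.0580), slide as a block (0.0545) and probe 1 alone (0.0915). The miR-29c-3p call was kept on leaving out each of the 16 arrays. The miR-29a-3p call was lost on leaving out any 1 of 10 (Media 2, Th2 1 to 4, Media_IL33 1 and 2, Th2_IL33 1, 2 and 4), with a highest adjusted p of 0.0721. Without the 3 arrays that stood apart, the average was 0.33 for miR-29a-3p (adjusted p = 0.0482), 0.38 for miR-29c-3p (adjusted p = 0.00626) and 0.24 for miR-29b-3p (adjusted p = 0.194). The 4 miRNAs listed as myeloid markers did not all move with the culture. Their summed relative signal was 23.5 to 31.8 in Th2_IL33, 17.8 to 26.1 in Th2, 14.7 to 21.1 in Media_IL33 and 8.22 to 17.5 in Media cells. Most of this sum was miR-21a-5p, which is also in the fibrosis list below, so the sum does not read the markers as a set. In the Th2 culture average miR-21a-5p rose (log2 difference 0.70, adjusted p = 0.00619), as did miR-223-3p (1.10, adjusted p = 0.000169). The other myeloid markers, miR-142a-3p (−0.10, adjusted p = 0.473) and miR-142a-5p (−0.12, adjusted p = 0.468), did not pass the test. The part of these markers in the miR-29 differences was not tested. The arrays measured the RNA of whole cultures, so more cells with the miRNA and more miRNA per cell cannot be told apart.

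IL-33 stimulation left no member past the threshold with either culture. After Th2 culture, miR-29a-3p was higher with IL-33 in 4 of 4 experiments, but by only 0.0070 to 0.15 on the log2 scale. All 4 Th2_IL33 arrays were on slide 2, and of the Th2 arrays only array 4 was. Slide and IL-33 can therefore hardly be told apart in this comparison. The Th2_IL33 minus Th2 log2 difference was 0.094 ± 0.18 for miR-29a-3p (95% interval −0.29 to 0.47), 0.072 ± 0.19 for miR-29b-3p (−0.34 to 0.49) and 0.071 ± 0.16 for miR-29c-3p (−0.27 to 0.41). The limma adjusted p was 1 for each, and no member was called or had groups that did not overlap, beside 1.73% and 3.9% of the tested miRNAs. In medium, the Media_IL33 minus Media difference was 0.091 ± 0.18 for miR-29a-3p (−0.29 to 0.47), −0.13 ± 0.19 for miR-29b-3p (−0.55 to 0.28) and 0.031 ± 0.16 for miR-29c-3p (−0.31 to 0.37). The adjusted p was again 1 for each, and no member was called or lay apart, beside 1.73% and 2.16% of the tested miRNAs.

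Single experiments in medium disagreed in direction. The Media_IL33 minus Media difference of miR-29a-3p was −0.46 in experiment 1 and 0.77 in experiment 3, and that of miR-29c-3p −0.60 and 0.63. For miR-29b-3p it was −1.01 in experiment 1 and 0.073 to 0.26 in the others, so that without Media array 1 the average became 0.055. On slide 1 the differences were 0.36 for miR-29a-3p, 0.16 for miR-29b-3p and 0.26 for miR-29c-3p, against −0.39, −0.81 and −0.47 on slide 2, where Media had array 1 alone. Averaged over both cultures, the IL-33 difference was 0.093 (95% interval −0.18 to 0.36) for miR-29a-3p, −0.031 (−0.32 to 0.26) for miR-29b-3p and 0.051 (−0.19 to 0.29) for miR-29c-3p, with adjusted p = 0.997 for each and 2.16% of the tested miRNAs called. This average was also added after the data had been seen. Its intervals end at 0.36 for miR-29a-3p and 0.29 for miR-29c-3p. Both ends lie below the Th2 culture differences of these members in a single pair of groups (0.40 to 0.44). The intervals of the single IL-33 comparisons were wider, reaching 0.47 for miR-29a-3p and 0.41 for miR-29c-3p, and leave room for changes of about that size. Of 3 miRNAs chosen for IL-33 (miR-21a-3p, miR-146a-5p and miR-155-5p), 3 rose with it in each culture, beside 1.73% of the tested miRNAs called in either direction. Of 3 chosen for Th2 cytokines (miR-511-3p, miR-223-3p and miR-378a-3p), 3 rose with them with and without IL-33, beside 9.52%. These miRNAs were chosen with earlier results of these data known, so their counts are no independent check of the stimuli. The mean of miR-511-3p was at the floor in both medium groups, so the size of its change depends on the floor.

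**Figure D2:**
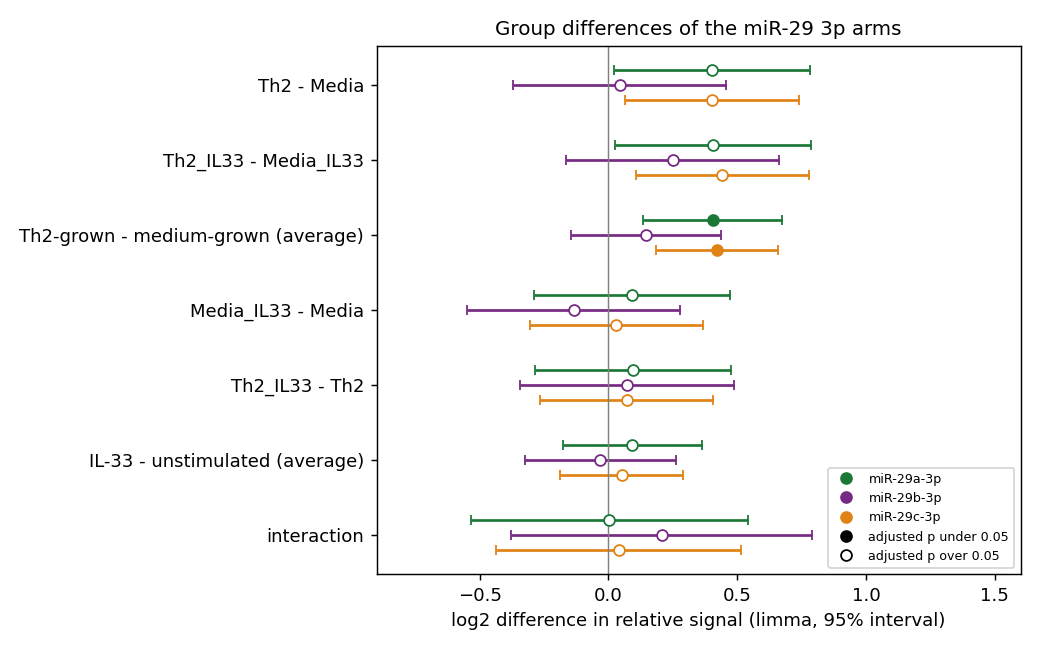
Log2 differences in relative signal (horizontal axis) with 95% intervals from limma for each member in each comparison, with filled symbols where the adjusted p was under 0.05. The filled symbols are miR-29a-3p (0.40) and miR-29c-3p (0.42) in the average over both Th2 culture comparisons, and every interval of the IL-33 comparisons and of the interaction spans 0.

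Subtracting the IL-33 difference in medium from that after Th2 culture gives the interaction, which asks whether the culture changed the response to IL-33. It was 0.0026 for miR-29a-3p (95% interval −0.54 to 0.54), 0.21 for miR-29b-3p (−0.38 to 0.79) and 0.040 for miR-29c-3p (−0.44 to 0.52), with a limma adjusted p of 0.995 for each. No member was called, and 0% of the 231 tested miRNAs were, with 5 at an unadjusted p under 0.05. Each interval reached past the differences seen with Th2 culture.

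Whether the members changed unequally was asked with the ratio of 2 members on the same array, which a scale factor common to the array does not change. The log2 ratio of miR-29c-3p over miR-29a-3p had the closest group means, at −2.15 ± 0.20 in Th2_IL33, −2.13 ± 0.12 in Th2, −2.19 ± 0.13 in Media_IL33 and −2.13 ± 0.15 in Media cells (SD, n = 4 each). The log2 ratio of miR-29b-3p over miR-29c-3p was 0.32 ± 0.24 in Th2_IL33, 0.32 ± 0.14 in Th2, 0.51 ± 0.062 in Media_IL33 and 0.68 ± 0.32 in Media cells. That of miR-29b-3p over miR-29a-3p was −1.83 ± 0.43, −1.81 ± 0.085, −1.68 ± 0.13 and −1.45 ± 0.45 in the same order of groups. Only the change of such a ratio between groups can be read, since its level also depends on the probes.

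Of the 12 tests of 3 ratios in 4 pairs of groups, none passed. The lowest unadjusted p was 0.114, for miR-29b-3p over miR-29c-3p in Th2 against Media cells (difference −0.36), and the adjusted values were 0.882 to 1 (exact two-sided permutation test over 70 splits, lowest possible p 0.0286). The 6 averaged tests of these ratios were added after the data had been seen and were adjusted apart from the 12. Averaged over both pairs of groups, miR-29b-3p over miR-29c-3p was lower with Th2 culture by −0.28 on the log2 scale (exact permutation p = 0.0196, adjusted p = 0.118 over 6 averaged tests). It averaged 0.32 ± 0.18 on the 8 Th2-cultured arrays and 0.59 ± 0.23 on the 8 medium arrays, with overlap. The matching difference was −0.26 for miR-29b-3p over miR-29a-3p (exact permutation p = 0.122, adjusted p = 0.365) and 0.017 for miR-29c-3p over miR-29a-3p (p = 0.816, adjusted p = 0.816). An unequal change of miR-29b-3p and miR-29c-3p thus did not pass after adjustment. It did pass with the outlier spots kept (−0.29, exact permutation adjusted p = 0.0465) and without Th2_IL33 array 3 (−0.33, adjusted p = 0.0147). It was −0.14 without the 3 arrays that stood apart (exact permutation adjusted p = 0.777), −0.18 with normexp background correction (0.252), −0.41 in the authors' deposited table (0.0637) and −0.19 with quantile normalization (0.459), which moves the ratio of 2 members on an array. With quantile normalization the averaged difference was −0.016 for miR-29b-3p over miR-29a-3p and 0.17 for miR-29c-3p over miR-29a-3p (exact permutation adjusted p = 0.923 and 0.459).

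**Figure D3:**
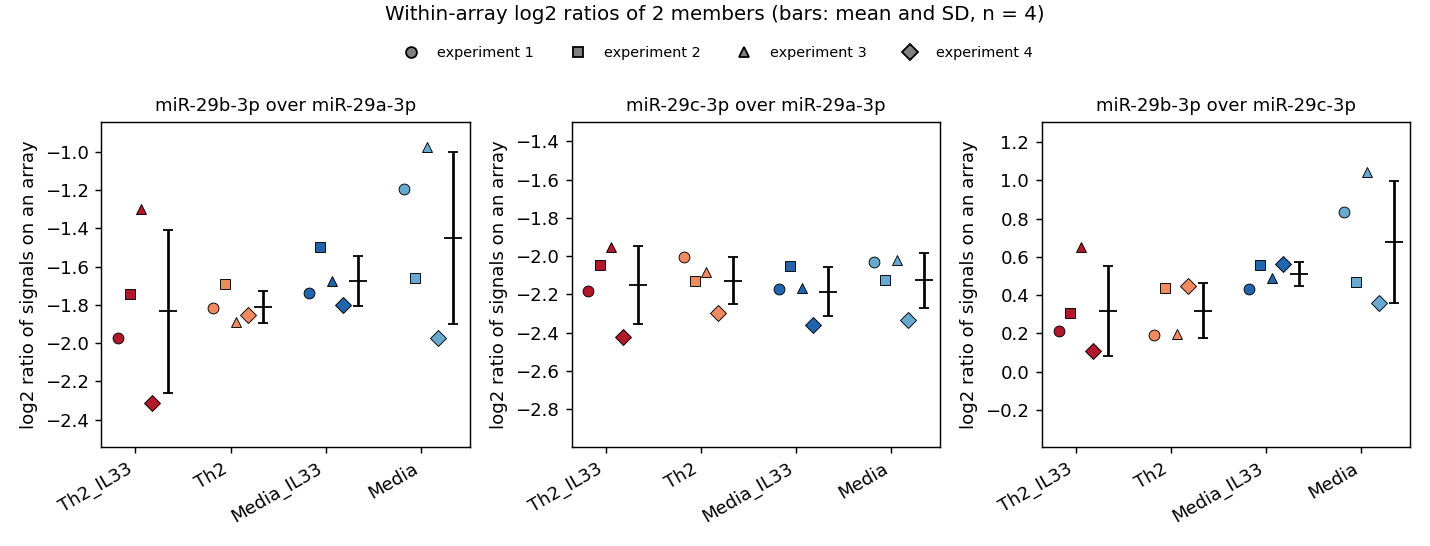
Log2 ratio of 2 members on each array, with Th2_IL33, Th2, Media_IL33 and Media from left to right, symbols for the 4 experiments, and bars for the mean and SD (n = 4). miR-29c-3p over miR-29a-3p has group means between −2.19 and −2.13, while both ratios with miR-29b-3p have their highest mean in Media (−1.45 and 0.68) and their widest spreads in Media and Th2_IL33.

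Over the 16 arrays, the log2 signal of miR-29c-3p followed that of miR-29a-3p (Pearson r = 0.895, Spearman rho = 0.706). After the group means were removed, r was 0.797. The probes of each of these members have 1 mismatch to the other. Whether RNA of one bound the probes of the other was not tested. Media array 3, which stood apart from its group, was the lowest array for both, and r without it was not computed. For miR-29b-3p and miR-29c-3p, r was 0.620 and rho 0.709, with r = 0.659 after the group means were removed. For miR-29b-3p and miR-29a-3p, r was 0.374 and rho 0.324, with r = 0.284 after that step. These are descriptions over arrays that share their scaling, and the median r over all pairs of tested miRNAs was 0.185. Among the other 230 tested miRNAs ranked by r, miR-29a-3p was number 6 for miR-29c-3p, and miR-29c-3p was number 12 for miR-29a-3p and number 3 for miR-29b-3p.

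The miRNAs whose pattern over the 16 arrays was most like that of miR-29a-3p were miR-27a-3p (r = 0.962), let-7a-5p (0.959), miR-331-3p (0.954), miR-24-3p (0.951) and miR-322-5p (0.938). For miR-29c-3p they were miR-322-5p (0.938), let-7c-5p (0.926), miR-324-5p (0.922), miR-34a-5p (0.917) and let-7a-5p (0.911). For miR-29b-3p the closest were less alike, with miR-142a-5p (0.684), miR-15a-5p (0.675), miR-29c-3p (0.620), miR-350-3p (0.564) and miR-142a-3p (0.551). miR-29a-3p and miR-29c-3p thus shared let-7a-5p and miR-322-5p among their 5 closest, and neither shared any with miR-29b-3p. Spearman rho of the listed miRNAs was 0.797 to 0.947 for miR-29a-3p, 0.776 to 0.891 for miR-29c-3p and 0.518 to 0.709 for miR-29b-3p. The lists rest on Pearson r over all 16 arrays, Media array 3 among them, and were not computed without it.

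**Figure D4:**
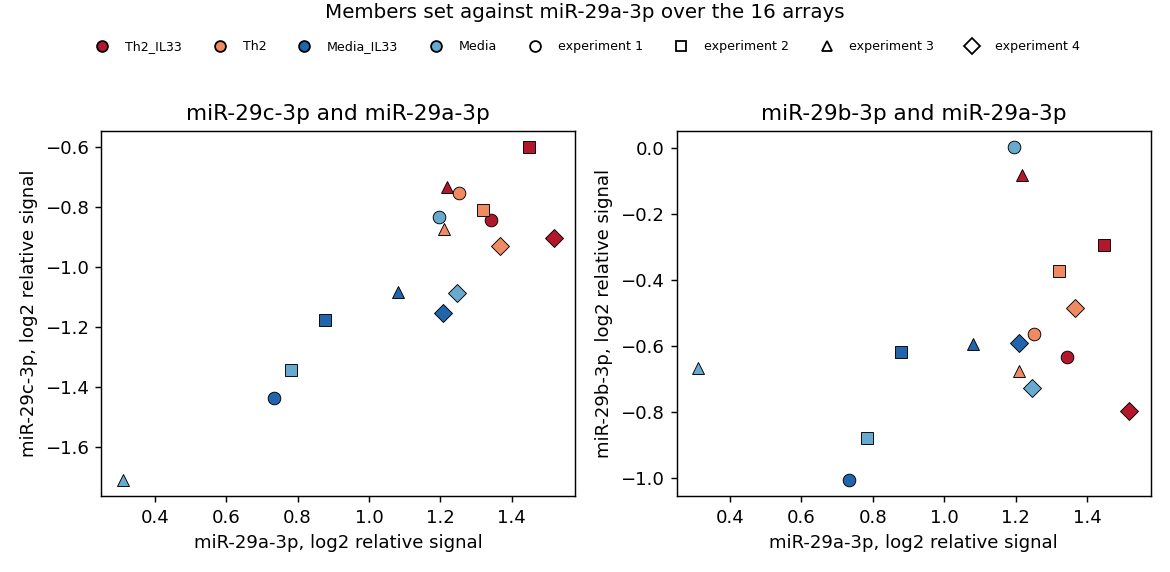
Log2 relative signal of miR-29c-3p (left) and miR-29b-3p (right) on the vertical axes against that of miR-29a-3p on the horizontal axis, with 1 point per array, colours for the groups and symbols for the experiments. The left points follow a line (r = 0.895) from Media array 3 at the low end to the Th2-cultured arrays at the high end, and the right points scatter (r = 0.374), with Media array 1 and Th2_IL33 array 3 at the top.

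The partner strands, cut from the other arm of the same hairpins, stayed near background. miR-29a-5p, miR-29b-2-5p and miR-29c-5p were detected on 0 of 16 arrays, and miR-29b-1-5p on 1 array, of a Media culture, without being well above background there. No change of the 5p arms between groups could be read at this signal.

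Other miRNAs known to act on the same processes were counted in the average over both Th2 culture comparisons, beside 16% of all tested miRNAs called higher and their median log2 difference of 0.096. Of 18 miRNAs linked to fibrosis, 9 were tested and 5 rose, with a median of 0.37. They include miR-21a-5p, a promoter of fibrosis (0.70 ± 0.16, limma adjusted p = 0.00619), and miR-30d-5p (0.41 ± 0.10, adjusted p = 0.0114), miR-30b-5p (0.57 ± 0.15, adjusted p = 0.0141) and miR-30c-5p (0.36 ± 0.10, adjusted p = 0.0187), which, like miR-29, are known to repress matrix genes or their inducers. Of the same miR-30 family, miR-30a-5p (0.31, adjusted p = 0.0679) and miR-30e-5p (0.12, adjusted p = 0.441) did not pass. Members of 1 family are not separate cases to set against the 16%, and the lists were chosen with earlier results of these data known. Of 8 miRNAs directed at DNA methyltransferases or chromatin genes, 4 were tested and 1 rose, miR-26a-5p, which targets the histone methyltransferase Ezh2 (0.48 ± 0.13, adjusted p = 0.0142), with a list median of 0.18. Of 8 directed at the survival genes Mcl1 or Bcl2, 6 were tested and 2 rose, miR-34a-5p, induced by p53 (0.79 ± 0.12, adjusted p = 0.000168), and miR-181a-5p (0.41 ± 0.14, adjusted p = 0.0442), with a list median of 0.25. miR-181a-5p was detected on only 9 of the 16 arrays. Its mean relative signal was 0.0375 in Media and 0.0390 in Media_IL33 cells, close to the floor. The size of its change, and with it this call, may therefore depend on the floor. No member of the 3 lists fell past the threshold. The fibrosis count was 1 with the percentile over all miRNAs, 0 with quantile normalization and 0 in the authors' deposited table, with list medians of 0.32, 0.27 and 0.28. In the same order, the methyltransferase list had 0, 0 and 0 calls and the survival list 1, 2 and 1. With normexp background correction and with the scanner software's summary, the fibrosis count was 6 and 5, the methyltransferase count 1 and 1, and the survival count 1 and 2. In the IL-33 average, 1 fibrosis miRNA rose (miR-155-5p, a miRNA of inflammatory activation, which was close to the floor without IL-33), and no member of the other lists did.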

How the data were processed

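Total RNA of 16 RAW264.7 cultures was hybridised to Agilent single-colour (Cy3) mouse miRNA arrays. Per the file headers, the deposited scanner files were made with Agilent Feature Extraction 10.7.3.1 and give spot intensity less background and spatial trend, not normalized across arrays. A second file deposited by the authors holds probe intensities of all arrays, made with Partek 6.6 and RMA per the submitters' processing notes. This table lists 3105 probes with a median intensity of 0.428 in every column and 23296 values below 0. It was taken here as linear, and which steps of RMA were applied to it is not known. Its columns ranked probes much as the scanner file of that array did (Spearman 0.992 to 0.999), and it served as an alternative. The genome build behind the probe annotation is not given in the sources used here.

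Control spots and outlier spots of the scanner files were left out, spots were averaged per probe, and probes were summed per miRNA on the linear scale. The scale of an array was the 75th percentile of 178 miRNAs that every array detected, and signals were divided by it. Values under 0.0353 (the 1st percentile of detected signals, log2 of −4.82) were set to that floor, and log2 was taken. Tested were the 231 miRNAs that 1 group or more detected on 4 of 4 arrays. limma 3.58.1 (R 4.3.3, data.table version 1.17.8) was fitted with 1 mean per group over the 16 arrays, with 12 residual degrees of freedom. p values were adjusted by Benjamini-Hochberg over the 231 miRNAs, with a threshold of 0.05. Adjusted p values in the text without another test named are limma's. The number of arrays limits the precision, and a log2 difference of 2 groups had a median standard error of 0.18. Ratios of members were tested with exact permutation tests over arrays (Python 3.11.15, scipy 1.17.1, numpy 2.4.6, pandas 2.3.3, matplotlib 3.10.9). Averages over a pair of comparisons permuted arrays within each pair (4900 splits). The fit was checked on simulated data.

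The experiment letters in the labels pair the arrays by independent experiment. Deviations from the group means correlated with a median r of 0.112 between arrays of the same experiment (24 pairs) and −0.048 between others (72 pairs). Experiment as a replicate block, slide as a block, other scalings, background corrections, summaries and left-out arrays were tried as alternatives. Mature, hairpin and gene sequences and positions are RefSeq's on GRCm38.p6, with 4 of 4 hairpins matched, and probe sequences are those of the scanner files. The members, the lists and the rule for likeness (the 5 tested miRNAs with the highest r) were chosen with earlier results of these data known. Up to 4 members were named per list, those with the smallest unadjusted p that passed.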

Additional observations from a re-analysis of the deposited data

Results flagged for a closer look

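miR-29b-3p in Media_IL33 cells had 1 array far from the other 3 of its group. Its relative signal was 0.499 in experiment 1, against 0.652 to 0.664 in experiments 2 to 4. On the log2 scale this was a gap of 0.936 of the group's range, which is above Dixon's 95% critical value for 4 arrays. Only 1 of the 2 probes was well above background on that array, as on Th2_IL33 arrays 1 and 4 and Media array 2. Of 24 groups of values checked (members and ratios), this was the single case, and chance gives about 1 in 20.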

How the results depend on the processing

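Besides the values reported, 342 values of member differences and 120 of ratios were computed under other settings that kept all 4 arrays of a group or left several out together. Of these, 288 and 101 kept their direction and their side of the threshold. The causes of the changes below were not tested. Testing every mouse miRNA on the array was not run, since many variances were 0 at the floor, and miRNAs detected on at least 1 array were tested instead, chosen after seeing the data.

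Of the average over both Th2 culture comparisons, the miR-29a-3p call was lost with the percentile over all miRNAs (0.36), quantile normalization (0.23), normexp background correction (0.29, adjusted p = 0.0580), the authors' deposited table (0.20), probe 1 alone (0.34, adjusted p = 0.0915), slide as a block (0.40, adjusted p = 0.0545) and within slide 2 (0.37). The miR-29c-3p call was lost with the percentile over all miRNAs (0.38), quantile normalization (0.41), the authors' deposited table (0.43) and within slide 2 (0.22). With the experiment as a replicate block, miR-29a-3p was at 0.40 (adjusted p = 0.0247) and miR-29c-3p at 0.42 (adjusted p = 0.0244), and the block changed no call of a member. The block and slide together gave 0.42 (adjusted p = 0.0287) and 0.42 (adjusted p = 0.0330).

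Calls were gained with array weights, for Th2_IL33 minus Media_IL33 (miR-29a-3p 0.43, miR-29c-3p 0.36, adjusted p = 0.00765 for both) and for Th2 minus Media (miR-29c-3p 0.31, adjusted p = 0.0362). They were gained too without the 3 arrays that stood apart (miR-29c-3p, Th2_IL33 minus Media_IL33, 0.39, adjusted p = 0.0418), within slide 2 (miR-29a-3p, the same comparison, 0.58) and with outlier spots kept (miR-29b-3p over miR-29c-3p, Th2 culture average, −0.29).

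Direction turned mostly in differences near 0. For Th2 minus Media, miR-29b-3p was at −0.010 with the percentile over all miRNAs, −0.081 in the authors' deposited table, −0.030 with normexp and −0.49 within slide 2, where miR-29c-3p was at −0.096. The Th2 culture average of miR-29b-3p was −0.064 within slide 2. For Th2_IL33 minus Th2, miR-29b-3p was at −0.070 with array weights, −0.15 with probe 1 alone, −0.044 with slide as a block and −0.090 with slide and replicate block, miR-29c-3p at −0.023 with array weights, and miR-29a-3p at −0.022 with quantile normalization. For Media_IL33 minus Media, miR-29a-3p was at −0.17 with array weights, −0.39 within slide 2 and −0.040 without the 3 arrays. miR-29c-3p was there at −0.073, −0.027 with normexp and −0.47 within slide 2, and miR-29b-3p at 0.16 within slide 1 and 0.10 without the 3 arrays. The IL-33 average of miR-29a-3p was −0.030 with array weights and −0.19 within slide 2, that of miR-29c-3p −0.048 and −0.16. That of miR-29b-3p was 0.067 with the percentile over all miRNAs, 0.053 in the authors' deposited table, 0.022 with the scanner software's summary and 0.060 without the 3 arrays.

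The interaction of miR-29a-3p was −0.079 in the authors' deposited table, −0.0011 with probe 2 alone, −0.24 with quantile normalization, −0.12 with the software's summary and −0.0076 with slide as a block. That of miR-29c-3p was −0.051 in the table, −0.022 with quantile normalization and −0.087 with the summary, and that of miR-29b-3p −0.058 with array weights and −0.080 without the 3 arrays. Of the ratios, miR-29c-3p over miR-29a-3p in Th2 minus Media was at 0.21 in the table, 0.026 with outlier spots kept and 0.10 without the 3 arrays. It was at −0.0061 with normexp in Th2_IL33 minus Media_IL33, −0.044 with normexp in the Th2 culture average, and 0.043 without the 3 arrays in Media_IL33 minus Media. miR-29b-3p over miR-29a-3p was at 0.094 in the table in Th2_IL33 minus Th2, and without the 3 arrays at 0.0049 in Th2 minus Media, 0.14 in Media_IL33 minus Media and 0.044 in the IL-33 average. miR-29b-3p over miR-29c-3p was at −0.020 with outlier spots kept in Th2_IL33 minus Th2, and without the 3 arrays at 0.097 in Media_IL33 minus Media and 0.051 in the IL-33 average. With quantile normalization, added after seeing the data, miR-29b-3p over miR-29a-3p was at 0.050 in Th2_IL33 minus Th2 and 0.15 in Th2_IL33 minus Media_IL33, miR-29c-3p over miR-29a-3p at 0.065 in Th2 minus Media and 0.053 in Th2_IL33 minus Th2, and miR-29b-3p over miR-29c-3p at −0.0024 in Th2_IL33 minus Th2.

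Leaving out each array in turn, the Th2 culture average ranged from 0.31 to 0.47 for miR-29a-3p and from 0.34 to 0.49 for miR-29c-3p. Th2 minus Media ranged from 0.21 to 0.52 for miR-29a-3p, from −0.060 to 0.23 for miR-29b-3p and from 0.25 to 0.54 for miR-29c-3p, and Th2_IL33 minus Media_IL33 from 0.33 to 0.48 for miR-29a-3p and from 0.37 to 0.49 for miR-29c-3p. Media_IL33 minus Media ranged from −0.10 to 0.21 (miR-29a-3p), −0.24 to 0.055 (miR-29b-3p) and −0.12 to 0.17 (miR-29c-3p). Th2_IL33 minus Th2 ranged from −0.051 to 0.19 for miR-29b-3p. The IL-33 average ranged from −0.0028 to 0.15 (miR-29a-3p), −0.093 to 0.064 (miR-29b-3p) and −0.026 to 0.12 (miR-29c-3p), and the interaction from −0.12 to 0.19 (miR-29a-3p) and −0.097 to 0.19 (miR-29c-3p). The ratio miR-29c-3p over miR-29a-3p ranged from −0.070 to 0.055 (Th2 minus Media), −0.090 to 0.067 (Th2_IL33 minus Th2), −0.031 to 0.13 (Th2_IL33 minus Media_IL33), −0.017 to 0.062 (Th2 culture average) and −0.076 to 0.0035 (IL-33 average). miR-29b-3p over miR-29a-3p ranged from −0.20 to 0.14 (Th2_IL33 minus Th2) and −0.33 to 0.0035 (Th2_IL33 minus Media_IL33), and miR-29b-3p over miR-29c-3p from −0.11 to 0.071 (Th2_IL33 minus Th2) and −0.33 to −0.21 (Th2 culture average).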
